A study of Mus musculus with 19 samples.

Results

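The cells described here were 182 macrophages from B16-F10 melanoma tumours that carried RNA of Lyve1, Cd209f or Fcna, the working definition of Lyve1 Cd209f resident-type macrophages. They were 103 of 8239 cells in the control library and 79 of 8361 cells in the knockout library, 182 of 16600 in all. A cell was a member when it had at least 3 UMIs (unique molecular identifiers, each standing for 1 captured RNA molecule) of Lyve1, Cd209f and Fcna together. It also had to hold at least 0.2% of its UMIs in C1qa, C1qb and C1qc, fewer than 4 UMIs of Mki67 and Top2a, and none of Cd3d, Cd3e and Cd3g. The members were thus chosen by these measured values, so the levels of these genes, and every contrast of the members with other macrophages, are descriptions with no test.

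The study grew B16-F10 cells, a mouse melanoma line of C57BL/6 origin, as tumours in mice and sorted live CD45+ cells, the leukocytes, for 10X Genomics 5' sequencing. The tumour cells were either scrambled controls (SCR) or Mettl5 knockout (KO); METTL5 is a methyltransferase that modifies ribosomal RNA. The deletion was in the injected tumour line, and the labels name no alteration of the host mice, whose macrophages are studied here. The labels name C57BL/6N mice for the blood samples of the same series, and how many tumours or animals went into each single-cell library, their age, the day of collection and whether the knockout line was 1 clone are not stated in the labels. There was 1 library per genotype, so no difference between genotypes has a replicate check, and the intervals below cover counting error only.

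LYVE1 is a hyaluronan receptor, best known on lymphatic endothelium and also carried by resident macrophages that line vessels in many tissues. Cd209f and Cd209g encode C-type lectins related to human DC-SIGN, and Fcna encodes ficolin A, a lectin that starts the lectin pathway of complement. Retnla encodes a secreted protein induced by interleukin 4 and interleukin 13. Macrophages of this kind are known for scavenging, for FOLR2 and CD163 on the surface and for low MHC class II.

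Sequence upstream of the start site is shown for Cd209f and Cd209g because Cd209g was found almost only in members that also had Cd209f. The bases are the 250 before the annotated start, 5′ to 3′ on the gene's strand, from RefSeq promoters of build GRCm38.p6, while the expression data were mapped to GRCm39. Cd209f is at chr8:4105765-4106014 on the minus strand and Cd209g at chr8:4134486-4134735 on the plus strand. Capitals mark the bases that are identical in a pairwise alignment of the pair.
Cd209f: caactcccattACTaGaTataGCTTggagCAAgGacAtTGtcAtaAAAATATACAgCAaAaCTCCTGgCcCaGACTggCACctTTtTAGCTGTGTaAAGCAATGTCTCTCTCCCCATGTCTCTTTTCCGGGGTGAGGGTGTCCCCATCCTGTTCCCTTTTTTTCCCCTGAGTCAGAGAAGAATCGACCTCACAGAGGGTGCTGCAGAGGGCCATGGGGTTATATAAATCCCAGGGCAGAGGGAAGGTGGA
Cd209g: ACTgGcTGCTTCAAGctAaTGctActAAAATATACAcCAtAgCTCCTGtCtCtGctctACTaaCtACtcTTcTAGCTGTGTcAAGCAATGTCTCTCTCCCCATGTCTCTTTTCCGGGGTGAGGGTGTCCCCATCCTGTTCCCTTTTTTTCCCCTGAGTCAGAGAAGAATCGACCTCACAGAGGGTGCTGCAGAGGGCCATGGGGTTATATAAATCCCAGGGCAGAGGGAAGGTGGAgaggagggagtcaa
Of 231 aligned positions 210 were identical, or 90.9%. The same alignment gave 62.6% identity between Cd209f and Cd209d, a further lectin gene of this cluster, and 53.2% between Cd209g and Cd209d. Both sequences hold TGAGTCA, the letters of an AP-1 site, which begins 83 bases before the start of Cd209f and 97 before that of Cd209g. On either strand 4.46% of all 32851 promoters of this length in the table hold it. Both also hold TATAAA, the letters of a TATA box, 29 and 43 bases before the start, and 12.4% of the promoters do. Of the 18 genes that are in the rule or lead the contrast with other macrophages, 12 matched the table, and 3 of them hold TGAGTCA (Cd209f, Cd209g and Folr2). The STAT6 motif is in Retnla alone among the 12 and in 5.85% of all promoters. A match of letters shows no binding. Because Cd209f and Cd209g are close copies here, and the labels do not say how reads shared by copies were assigned, their split between both genes is uncertain; the transcripts were not compared.

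The members carried macrophage markers, some of them required by the rule. The macrophage list includes C1qa, C1qb and C1qc, which members and other macrophages alike had to carry. In SCR members these stood at 3841, 5089 and 3500.5 CPM, most of the summed level of the list, so that sum mostly restates the rule. Csf1r, outside the rule, stood at 381 and 386 CPM in SCR and KO members against 312 and 279.5 CPM in other macrophages. All 9 genes of the macrophage list were measured in them, with summed levels of 14917 CPM (UMIs per 1000000 UMIs) in SCR members and 17459 CPM in KO members, against 15463 and 16403 CPM in other macrophages. Of the lymphatic endothelium list, Prox1, Flt4, Mmrn1, Ccl21a and Reln were at 0 in members of both libraries, and Pdpn, the other gene of that list, stood at 52.1 CPM in SCR and 17.8 CPM in KO members, below the 83.8 and 45.0 CPM of other macrophages. A count of 0 allows up to 2.61 CPM in SCR members and 3.34 CPM in KO members. Other macrophages were the 3509 SCR and 3610 KO cells that passed the same C1q, Mki67, Top2a and Cd3 conditions with fewer than 3 UMIs of the rule genes. The members held 1151270 UMIs in SCR and 898369 in KO, with medians per cell of 7955 and 9149, and other macrophages had medians of 10994 and 9520.5. Mettl5 itself had 11 UMIs in SCR and 13 in KO members, 9.56 and 14.5 CPM; the host cells were not edited, so this does not check the labels. Between the libraries 116 cell barcodes were shared, among them those of 6 SCR members and 1 KO member. Members with at least 2 UMIs of the markers of another cell type were 42.7% in SCR and 55.7% in KO, against 46.0% and 41.8% of other macrophages.

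The label held for part of the members. Cd209f RNA was found in 60 of 103 SCR members (58.3%, exact 95% interval 48.1 to 67.9%) and 40 of 79 KO members (50.6%, 39.1 to 62.1%). Lyve1 without Cd209f was found in 17 SCR and 17 KO members. The remaining 26 SCR and 22 KO members met the rule by Fcna alone. All 3 rule genes were found together in 30 SCR and 24 KO members, and all 5 label genes (with Cd209g and Retnla) in 12 and 12. Depth differed between these groups. Cells with Cd209f had medians of 5694 UMIs in SCR and 5433 in KO, cells with Lyve1 and no Cd209f had 7612 and 9674, and cells with Fcna alone had 17922 and 19617. The cells with Fcna alone thus held 48.1% of all member UMIs in SCR, which weighs on every summed level given for members as a whole. With the rule applied to cells thinned to 2000 UMIs each, the members were 0.509% of cells in SCR and 0.432% in KO.

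At the threshold, 31 SCR and 20 KO members had exactly 3 UMIs of the rule genes, and 63 SCR and 60 KO macrophages just outside had 2. Members with 10 or more numbered 29 in SCR and 28 in KO. The cells with 2 UMIs had median depths of 13283 in SCR and 11951 in KO, deeper than the members.

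**Figure D1:**
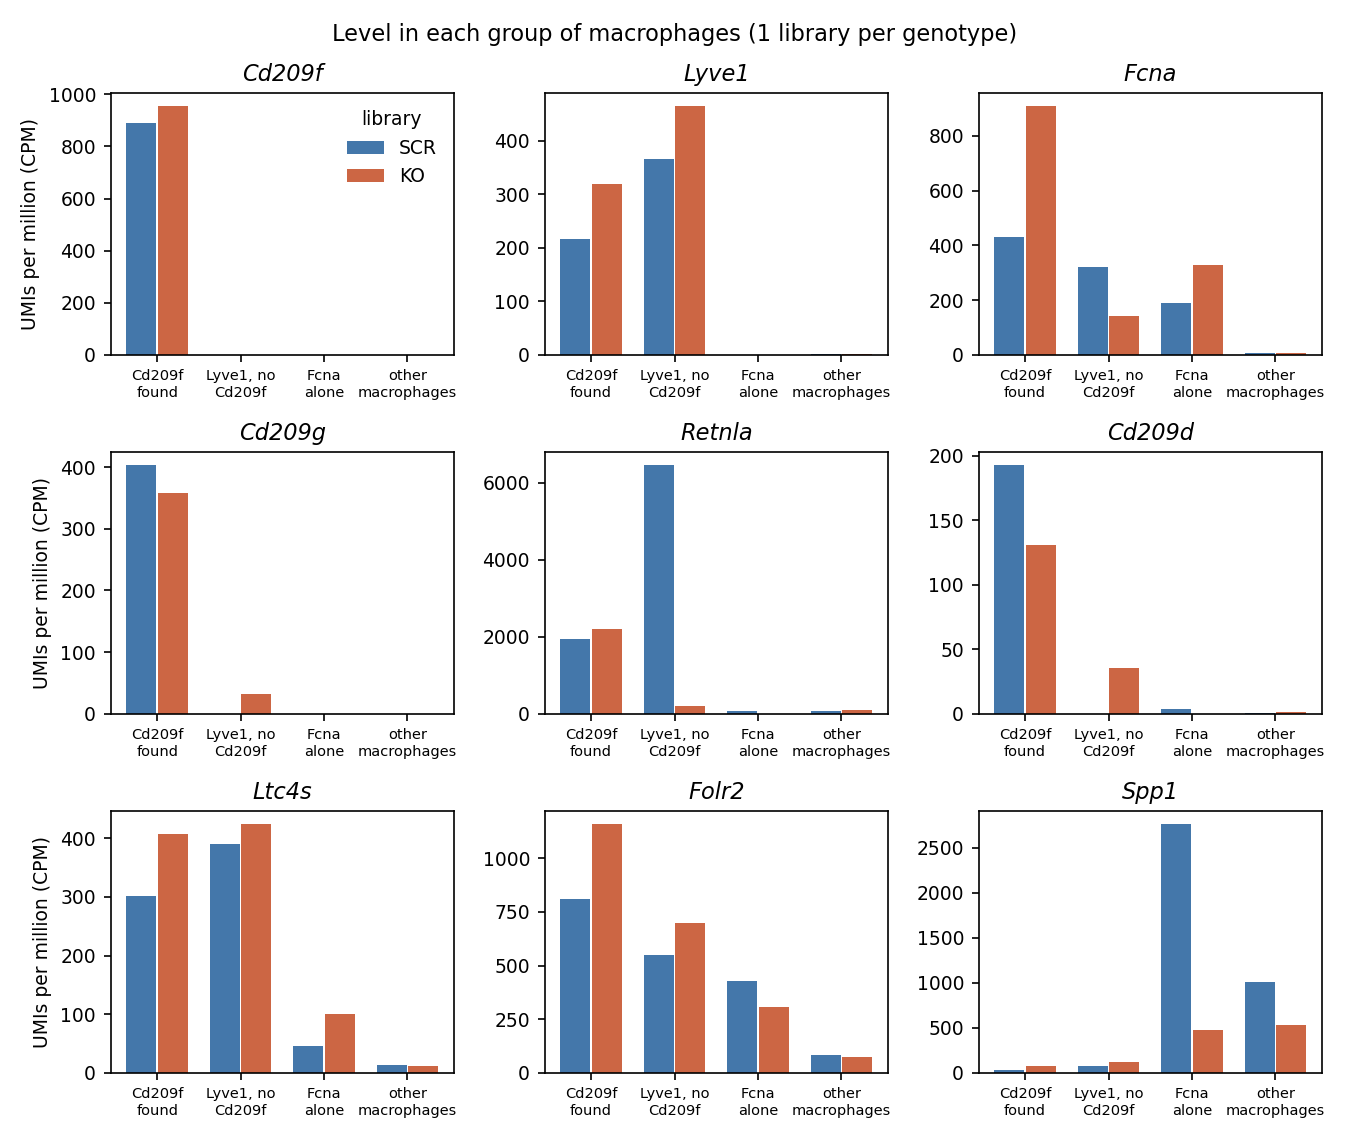
Level of 9 genes, in CPM on a linear axis from 0, in the 3 groups of members and in other macrophages, for the SCR and the KO library (bars; 1 library per genotype, so no error bars). Cd209g and Cd209d stand mostly in the cells with Cd209f, Spp1 in the cells with Fcna alone and in other macrophages, and the tall SCR bar of Retnla comes mostly from 1 cell of 930 UMIs.

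Cd209g went with Cd209f. Of SCR members, 41 had Cd209g and Cd209f together, and 0 of the 43 without Cd209f had Cd209g, and of KO members 25 had both and 1 had Cd209g alone. In the cells with Cd209f its level was 404 CPM in SCR and 357 CPM in KO, and in the cells with Fcna alone it was 0 in both, where a count of 0 allows up to 5.41 and 7.66 CPM. With each cell thinned to 2000 UMIs, so that depth was equal, 57.4% of SCR and 45.9% of KO cells with Cd209f had a Cd209g UMI. The same measure gave 0.0297% and 0.0290% in other macrophages, and 0 of 192 SCR and 0.526% of KO T cells, which should lack the gene and show free RNA (median depths 4382 and 4444 UMIs). Across the 7301 macrophages of both libraries, Pearson's r of log2(CPM + 1) per cell between Cd209f and Cd209g was 0.726, the highest of any gene with Cd209f. Next came Lyve1 (0.448), C6 (0.441), Fcna (0.427) and Cd209d (0.416); cells share a library and depth, so these are descriptions.

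Cd209d followed the same grouping, with 193 and 131 CPM in SCR and KO cells with Cd209f and 3.61 and 0 CPM in those with Fcna alone. C6, a component of the membrane attack complex, had 29 of its 35 SCR member UMIs and all 19 of its KO member UMIs in cells with Cd209f, and none in cells with Fcna alone. For Lyve1 the genes of most similar pattern after Cd209f were Fgfr1 (0.376), Cd209g (0.366), Fcna (0.348) and Ltc4s (0.345). For Fcna they were Cd209f (0.427), Cd209g (0.362), Lyve1 (0.348), Fgfr1 (0.319) and Folr2 (0.306).

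Retnla was found in a minority of members, in as many cells as Cd209g in each library, and its UMIs were spread unevenly. It was found in 41 of 103 SCR members, 35 of them with Cd209f, and in 26 of 79 KO members, 22 of them with Cd209f. Among the 26 and 22 cells with Fcna alone, 2 SCR and 0 KO cells had it. A single SCR member held 930 of the 1898 SCR UMIs, or 49.0%, and this cell had 13 UMIs of Lyve1 and none of Cd209f, Fcna or Cd209g. The next highest SCR cell had 171, and the highest KO cells had 167 and 162. In T cells, where the gene should be absent, Retnla stood at 160 CPM in SCR, from 6 of 209 cells of which 1 held 249 of the 254 UMIs, and 27.7 CPM in KO.

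Compared with other macrophages, members carried more RNA of several lectins, of the receptors Folr2 and Cd163 and of the complement gene C4b. Of 3244 genes tested (at least 100 UMIs in members of both libraries together, or that many expected from other macrophages), 58 were at least 2-fold higher in members of both libraries and 42 at least 2-fold lower. These are 1.79% and 1.29% of the genes tested, and the rule used this contrast, so nothing is read from the shares. With TMM scaling of the UMI sums the counts were 49 higher and 68 lower, a split of 41.9% higher in place of 58%. Of the list of resident macrophage genes outside the rule, 29 of 40 could be tested, 18 were higher and 0 lower. Their median ratio was 2.89 in SCR and 3.94 in KO, where the median of all genes tested was 1.01 in both. This list was written with the label in view and is no independent evidence of its direction.

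Lectins led the contrast. Cd209g stood at 155 CPM in SCR and 120 CPM in KO members and at 0.168 and 0.242 CPM in other macrophages, ratios of 920.5 (438 to 2323) and 496 (252 to 1114). Cd209d, at 75.6 and 50.1 CPM against 0.672 and 1.35 CPM, followed with ratios of 112.5 and 37.2. Clec10a, which binds galactose-type sugars and is induced by interleukin 4, stood at 174 and 159 CPM against 27.2 and 30.8 CPM. The rule genes themselves were at 132 and 216 CPM for Lyve1, 340.5 and 300.5 CPM for Cd209f and 299.7 and 465 CPM for Fcna, with 0.600 and 0.942, 0.432 and 0.485, and 6.24 and 6.65 CPM in other macrophages.

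Of the surface receptors, Folr2, a folate receptor of resident macrophages, was found in 97 of 103 SCR and 72 of 79 KO members, at 591.5 and 673 CPM against 83.9 and 75.8 CPM in other macrophages. Unlike Cd209g and Cd209d it was above the other macrophages in all 3 groups of members of both libraries, down to 430 and 309 CPM in the cells with Fcna alone. Cd163, the receptor for haemoglobin bound to haptoglobin, stood at 59.1 and 45.6 CPM against 3.94 and 3.96 CPM. Ednrb, an endothelin receptor, was at 114 and 115 CPM against 4.30 and 5.71 CPM, and Fgfr1, a fibroblast growth factor receptor, at 64.3 and 64.6 CPM against 2.11 and 4.15 CPM. Fcgrt, the neonatal Fc receptor that recycles antibody, was 4.75 and 4.01 times the level of other macrophages, and Siglec1 2.89 and 2.99 times. The list of scavenger and uptake receptors was mixed. Of 18 genes tested 5 were higher (Cd163, Fcgrt and the lectins Cd209d, Cd209g and Clec10a) and 1, Axl, lower, with medians of 1.06 and 1.19. Of all genes tested 1.79% were higher and 1.29% lower, with a median of 1.01 in both libraries. Cd209g is a gene of the label, so the count partly repeats it.

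Enzymes and small membrane proteins followed. Ltc4s, which makes leukotriene C4, stood at 190 CPM in SCR and 277 CPM in KO members against 12.96 and 12.12 CPM. Cbr2, a carbonyl reductase, stood at 634 and 1179 CPM against 142.5 and 131 CPM. Fxyd2, a regulator of the sodium pump, had ratios of 17.3 and 14.4, and Rcn3, a calcium-binding protein of the secretory pathway, 16.3 and 11.4.

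Secreted products set the members apart as well. Ccl8, a chemokine for monocytes and T cells, stood at 4814 and 4262 CPM in SCR and KO members against 828 and 843.5 CPM in other macrophages, and in cells with Cd209f it reached 8880 and 8202 CPM. F13a1, the A chain of coagulation factor XIII, was at 871 and 759 CPM against 146 and 120 CPM. Ccl6 had ratios of 2.89 and 3.69, Ccl24 of 9.57 and 3.94, and Selenop, a selenium carrier, of 2.16 and 3.29. C4b, a complement component, stood at 140 and 105 CPM against 8.37 and 14.7 CPM. Saa3, an acute-phase protein, stood at 148 and 102 CPM against 1.90 and 6.06 CPM, but 1 SCR cell held 42.4% and 1 KO cell 34.8% of its UMIs.

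The 15 genes of highest ratio were all higher in the cells with Cd209f than in those with Fcna alone, in both libraries. In the cells with Fcna alone 9 of the 15 were above other macrophages in both libraries, and Ccl24, Cd209d, Cd209g, Fgfr1, Retnla and Saa3 were not. Ltc4s, for example, was at 302 and 407 CPM with Cd209f, 390 and 424 CPM with Lyve1 and no Cd209f, and 45.1 and 99.5 CPM with Fcna alone. F13a1 was highest with Cd209f and lowest with Fcna alone, at 1612 and 1267 CPM, 1031 and 916 CPM, and 236 and 304 CPM. Macrophages high in Gas6, Igf1 and Stab1, another class of this series, had little of the lectins: in their 1839 SCR and 1550 KO cells Cd209f was at 0.147 and 0.238 CPM and Cd209g at 0.147 and 0.238 CPM, while Cbr2 was at 198 and 190 CPM and Folr2 at 109 and 104 CPM.

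**Figure D2:**
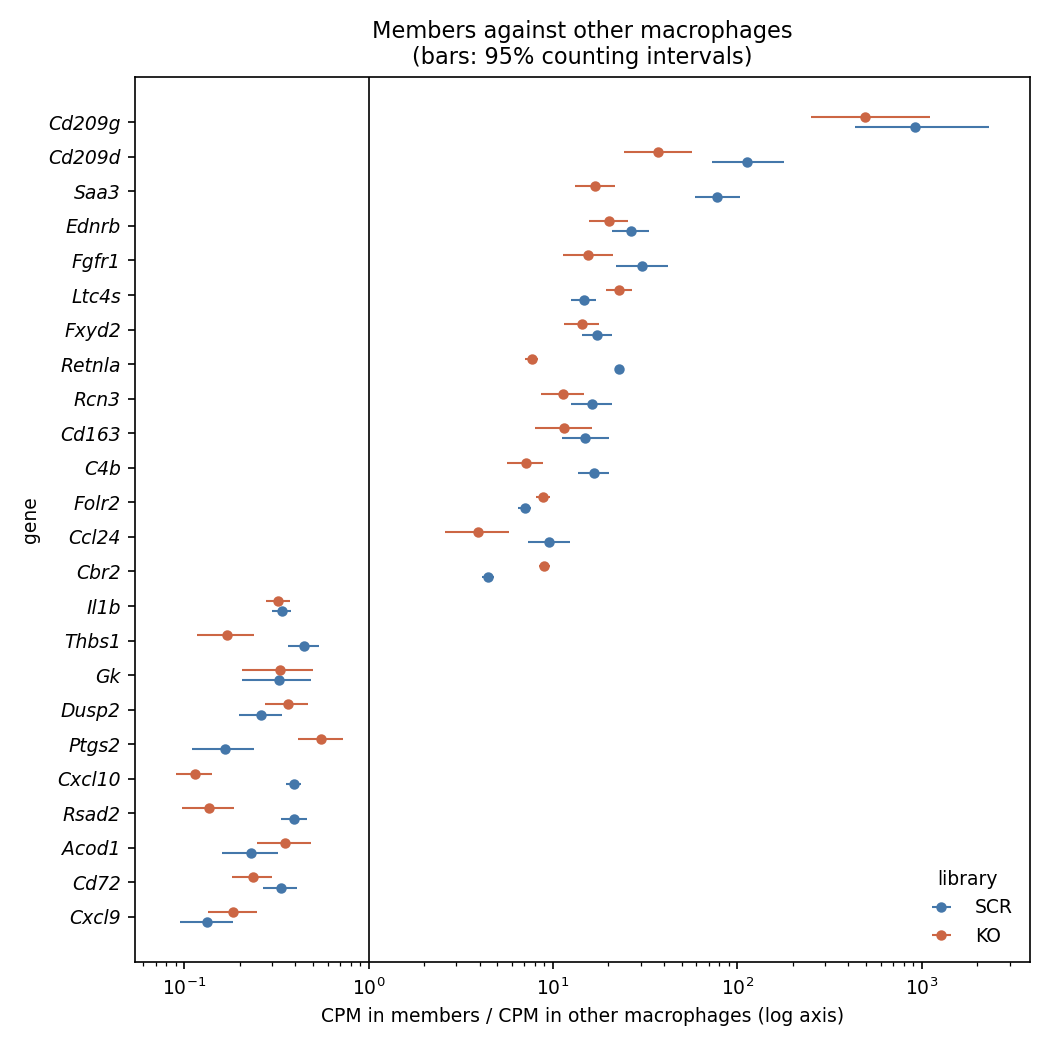
Ratio of the level in members to that in other macrophages (log axis) for the named genes of highest and lowest ratio, in the SCR and the KO library, with 95% counting intervals as bars. Cd209g has the highest ratios (920.5 in SCR and 496 in KO) and Cxcl9 the lowest in SCR (0.134).

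Some genes of interferon response and inflammation were lower in members. Of the interferon-stimulated list, 22 of 30 genes could be tested, and 5 were at least 2-fold lower in both libraries (Cxcl9, Cxcl10, Rsad2, Isg15 and Ifit1) and 0 higher, beside 1.29% of all genes lower, with a median ratio of 0.725 in SCR and 0.791 in KO. Pooled over cells, the list summed to 4608 CPM in SCR and 4329 CPM in KO members, against 5955 and 6061 CPM in other macrophages. The median of the summed level per cell did not follow: it was 4304 and 4820 CPM in members and 4181 and 4223 CPM in other macrophages. Cells with Cd209f had medians of 5061 and 5795 CPM. Cxcl9, a chemokine for T cells, stood at 33.0 CPM in SCR and 50.1 CPM in KO members against 247 and 271 CPM in other macrophages. Cxcl10 stood at 396 and 89.1 CPM against 1006 and 781 CPM. Not all of the list was lower: Ly6e had ratios of 1.46 and 1.37 and Bst2 of 1.12 and 1.27.

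Of the inflammatory list, 13 of 20 genes could be tested, 3 were lower (Il1b, Ccl3 and Ccl4) and 0 higher. Of all genes tested 1.29% were lower and 1.79% higher. The median ratio of the list was 0.561 in SCR and 0.554 in KO, where that of all genes tested was 1.01 in both. Il1b, the precursor of interleukin 1 beta, stood at 241 and 213 CPM in members against 709 and 657.5 CPM, and Ccl4 at 2062 and 1519 CPM against 5008 and 4168 CPM. Ptgs2, Acod1, Thbs1, Gk, Dusp2 and Cd72 were among the 10 genes of lowest ratio. All 10 were below other macrophages in the cells with Cd209f and in those with Fcna alone, in both libraries, and 9 of the 10 also in the cells with Lyve1 and no Cd209f, where the exception was Thbs1 (230 CPM in SCR against 220 CPM).

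MHC class II genes, which present antigen to CD4 T cells, were lower in sum. The 12 genes of the list summed to 7533 CPM in SCR and 5651 CPM in KO members, against 12981 and 13288 CPM in other macrophages. All 7 that could be tested had ratios under 1 in both libraries, with medians of 0.557 and 0.397, and 1, H2-DMb1, passed 2-fold in both (0.487 and 0.485). Cd74, the invariant chain, stood at 3066 and 2236 CPM against 5583 and 5631 CPM, and H2-Aa at 1120.5 and 828 CPM against 1954 and 2088 CPM. In the T cells the 12 genes summed to 6281 CPM in SCR and 6348 CPM in KO, below the SCR and above the KO members. How much of the members' summed level is free RNA was not tested. MHC class I was close to other macrophages, with medians of 0.983 and 0.909 and 0 of 13 genes past 2-fold in either direction.

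Single members varied widely in MHC class II. The summed level per cell had a median of 2462 CPM in SCR members (lowest 0, highest 36163) and 2548 CPM in KO members (lowest 508, highest 33479). In other macrophages the medians were 4906 and 7384 CPM. In those of them with at least 3 UMIs of Gas6, Igf1 and Stab1 they were 3033 and 3586 CPM, nearer to the members. Most members were low, and 18 of 103 SCR and 5 of 79 KO members were above 20000 CPM, a level chosen after the values were seen. Of other macrophages 24.6% in SCR and 26.0% in KO were above it. Among the cells with Cd209f 12 of 60 in SCR and 1 of 40 in KO were above it, among those with Lyve1 and no Cd209f 1 of 17 and 3 of 17, and among those with Fcna alone 5 of 26 and 1 of 22.

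**Figure D3:**
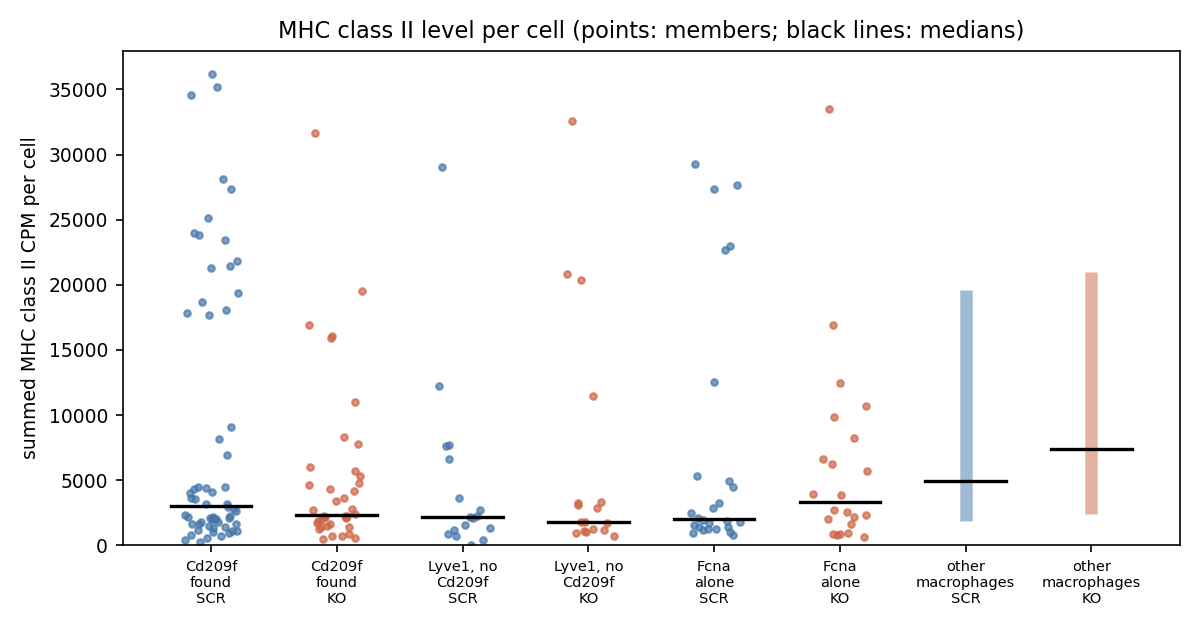
Summed MHC class II level per cell, in CPM on a linear axis from 0, for each member (points) by group and library, with black lines at the medians; for other macrophages the bar spans the middle 50% of cells. Most members lie low, and 18 SCR and 5 KO members lie above 20000.

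Between genotypes the first comparison was of numbers. Members were 1.25% of cells in SCR (exact 95% interval 1.02 to 1.51%) and 0.945% in KO (0.749 to 1.18%). The KO share was 0.756 times the SCR share, with a counting interval of 0.557 to 1.02 that includes 1. Of macrophages they were 2.85% (2.33 to 3.45%) and 2.14% (1.70 to 2.66%). These intervals hold no spread between tumours.

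Among the rule genes, Lyve1 and Fcna stood higher in KO members as a whole and Cd209f at nearly the same level. Lyve1 was at 132 CPM in SCR and 216 CPM in KO, a ratio of 1.64 (1.32 to 2.04). Without cells that carried 2 UMIs of another cell type, the log2 ratio of Lyve1 was -0.064, so its direction turned. Fcna was at 299.7 and 465 CPM, a ratio of 1.55 (1.34 to 1.80). Cd209f was at 340.5 and 300.5 CPM, 0.883 times (0.753 to 1.03), and Cd209g at 155 and 120 CPM, 0.778 times (0.606 to 0.993). In the cells with Cd209f, Lyve1 was at 215 and 318.5 CPM and Fcna at 431 and 909 CPM, while in the cells with Lyve1 and no Cd209f, Fcna was lower in KO (320 and 143 CPM).

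Retnla was lower in KO members as a whole, 1649 against 742.5 CPM, a ratio of 0.450 (0.412 to 0.492). Without the SCR cell of 930 UMIs the SCR level was 849 CPM and the ratio 0.874 (0.791 to 0.966). In the cells with Cd209f it was slightly higher in KO, 1941 against 2197 CPM, a ratio of 1.13 (1.02 to 1.26). Without the highest cell of both libraries the ratio was 0.659 (0.590 to 0.735).

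Over the 3042 genes with at least 100 member UMIs, 88 (2.89%) were at least 1.5-fold higher and 122 (4.01%) at least 1.5-fold lower in KO members, with a median ratio of 1.03. With TMM scaling these were 57 and 160, or 26.3% higher in place of 41.9%. In other macrophages 6 of the same 3042 genes were 1.5-fold higher and 8 lower; those populations hold far more UMIs, so less of their spread is counting error. Of the 210 genes past 1.5-fold in members, 115 were past it the same way in the cells with Cd209f, and 6 in other macrophages. The cells with Cd209f are part of the members, with 38.3% of SCR and 31.5% of KO member UMIs, so this overlap is partly built in. The share of all 3042 genes past 1.5-fold in those cells is not given here, so nothing is read from the 115. Of the 122 lower genes, 20 had at least 25% of their SCR UMIs in 1 cell, and 5 of the 88 higher genes had as much of their KO UMIs in 1 cell.

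For the 4 lowest ratios 2 SCR cells held most of the SCR UMIs. Ptgds, a prostaglandin synthase, was at 172 CPM in SCR and 2.23 CPM in KO (ratio 0.0129, 0.00156 to 0.0474), and the pigment-cell genes Mlana (0.144), Pmel (0.158) and Dct (0.187) were next. Both cells carried Cd209f and were deep, with 28349 and 29172 UMIs. They held 224 and 205 UMIs of the 6 melanoma genes, 91.5% of the 469 in all SCR members, and 115 and 71 of the 198 UMIs of Ptgds; the next highest member had 4 melanoma UMIs. KO members held 65 melanoma UMIs, with at most 11 in a cell. Without those 2 cells Mlana, Pmel and Dct were higher in KO, by 1.87, 1.28 and 0.43 on the log2 scale, and Ptgds was lower by 2.30.

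Spp1, which encodes osteopontin, stood at 1350 CPM in SCR and 259 CPM in KO members, a ratio of 0.192 (0.167 to 0.221). Of its SCR UMIs 98.5% were in the 26 cells with Fcna alone, where it stood at 2762 CPM in SCR and 475 CPM in KO. In the cells with Cd209f it was near the bottom of its range and higher in KO, at 29.5 and 70.8 CPM. In other macrophages it was lower in KO too, 1005 against 527 CPM, and a single SCR member held 33.1% of the SCR member UMIs. Without the highest SCR cell the ratio in members was 0.277 and without the highest KO cell 0.117.

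Other lower genes were Cxcl10 (0.225), P2rx7 (0.289), Rsad2 (0.342), Il1rn (0.349) and Rgcc (0.358), as ratios of KO to SCR. P2rx7, an ATP-gated channel, had 69 of its 124 SCR UMIs in 1 cell, without which its ratio was 0.644 (0.393 to 1.03). Cxcl10 had 47.5% of its KO UMIs in 1 cell, without which its ratio was 0.121. It also had 30.7% of its SCR UMIs in 1 cell, without which the ratio was 0.316, and without both cells it was 0.170. Cxcl10 was lower also in the cells with Cd209f, 215 against 84.9 CPM, and in other macrophages. Rsad2, an antiviral enzyme, was higher in KO cells with Cd209f (79.4 and 106 CPM) and lower in those with Fcna alone (144 and 15.3 CPM).

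Several tumour macrophage and hypoxia genes were lower in KO members. Of 22 tested genes of this list, 9 were at least 1.5-fold lower (Spp1, Ctsl, Hilpda, Gpnmb, Mmp12, Vegfa, Mmp14, Fabp5 and Atp6v0d2) and 1, Arg1, higher, beside 4.01% and 2.89% of all genes; the median ratio was 0.695. Apoe, a lipid carrier, stood at 8049 and 5548 CPM, and Ctsl, a lysosomal protease, at 1543.5 and 752.5 CPM. Summed over the list, the cells with Fcna alone stood at 27922 CPM in SCR and 19198 CPM in KO, and the cells with Cd209f at 17697 and 16659 CPM. Other macrophages summed to 20596 and 16841 CPM, lower in KO as well.

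Genes higher in KO members were fewer and led by Slc40a1, the iron exporter ferroportin, at 21.7 CPM in SCR and 92.4 CPM in KO (ratio 4.26, 2.69 to 6.95). Of its 83 KO UMIs 34 were in 1 cell, without which the ratio was 2.56 (1.55 to 4.32), and 1 SCR cell held 11 of the 25 SCR UMIs, without which it was 7.36. Of the KO UMIs of this gene 65 were in cells with Fcna alone. Arg1, which breaks down arginine, stood at 62.5 and 167 CPM (2.67, 2.003 to 3.59), found in 12 SCR and 8 KO members, and 1 KO cell held 44% of its KO UMIs, without which the ratio was 1.52 (1.09 to 2.11). It was higher in KO with Cd209f (27.2 and 163 CPM) and with Fcna alone (39.7 and 265 CPM), while with Lyve1 and no Cd209f it was at 243 CPM in SCR and had no UMI in KO. The others were Itgav (2.29), Vcam1 (2.23), Ifitm1 (2.16), Lair1 (1.95), Myc (1.89), Cd164 (1.86), Prxl2b (1.86) and Cbr2 (1.86). Ifitm1 had 42.9% of its KO UMIs in 1 cell, and its ratio was 1.25 (0.838 to 1.86) without that cell and 3.40 without the highest SCR cell. With Cd209f found, the ratios of Myc (0.936) and Cd164 (0.758) were below 1.

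Cbr2 was the most widely carried of them, in 92 of 103 SCR and 73 of 79 KO members, with no cell above 6.80% of its UMIs. It was higher in KO in all 3 groups of members: 964 and 1479 CPM with Cd209f, 634 and 1640 CPM with Lyve1 and no Cd209f, and 372 and 699 CPM with Fcna alone. In other macrophages it stood at 142.5 and 131 CPM. Vcam1, an adhesion molecule, was unlike it: 92 of its 99 KO UMIs were in cells with Fcna alone, and with Cd209f it was lower in KO (29.5 and 14.2 CPM).

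Lists of other functions were mixed. Beside 2.89% of all genes higher and 4.01% lower, of 12 iron and haem genes tested, 2 were higher (Slc40a1 and Tfrc) and 0 lower, with a median ratio of 0.978, and of 16 lipid and cholesterol genes 0 were higher and 1, Fabp5, lower. MHC class II genes had a median ratio of 0.739 over 7 genes, of which 1, H2-Eb1 (766 and 502 CPM), passed 1.5-fold. Resident macrophage genes outside the rule had a median of 1.02 over 29 genes, with 2 higher (Cbr2 and Tppp3) and 4 lower, among them Ccl24, Cd209d and Retnla.

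**Figure D4:**
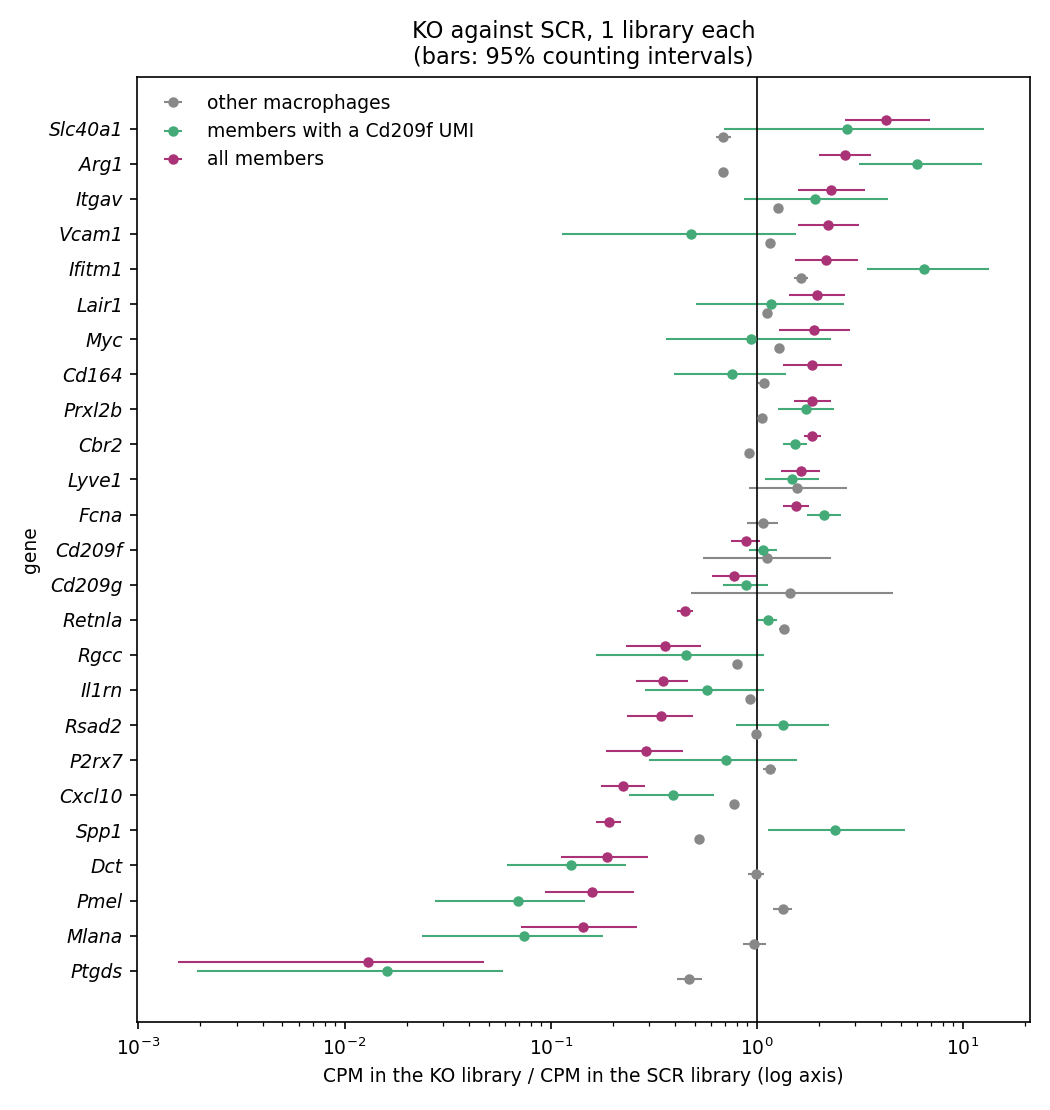
Ratio of the KO to the SCR level (log axis) for the rule and label genes and the 20 genes named as higher or lower in KO, with 95% counting intervals, in all members, in members with a Cd209f UMI and in other macrophages. Spp1 and Retnla are below 1 in all members (0.192 and 0.450) and above 1 in members with Cd209f (2.40 and 1.13).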

How the data were processed

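UMI counts per gene and cell were deposited by the authors as unnormalized matrices, made with Cell Ranger 8.0.1 per the file headers and mapped to GRCm39 per the submitters' processing notes. The library named WT was taken as SCR. Cells needed at least 500 UMIs, 300 genes and under 10% mitochondrial UMIs. The members and gene lists were chosen with earlier results of these data known. Levels are UMI sums scaled to 1000000 UMIs (CPM); ratios have exact conditional binomial 95% intervals and shares exact Clopper-Pearson intervals, for counting error only. Genes whose expected UMIs from other macrophages reached 100 were added to the test against these, beyond the planned minimum of 100 UMIs in members. The level of 20000 CPM for MHC class II was set after the values were seen. Ratios were tested on simulated UMI sums, drawn independently for each gene. These lack the clumping of UMIs in single cells seen here, so that test does not cover it. Thinning drew 2000 UMIs per cell and left out 7 SCR and 3 KO members. T cells had at least 2 Cd3 UMIs and under 0.05% C1q.

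Named genes were the rule and label genes, the 15 highest and 10 lowest ratios to other macrophages (at least 100 UMIs, or expected UMIs for the lowest, same side of 1 in both libraries), the 10 largest rises and falls between genotypes with intervals that leave out 1, up to 4 genes per list by UMI sum, and the 5 genes most alike each rule gene; not all are printed, and others were named after their values were seen. The result of 1 of these genes is not reported here. Scrublet, run per library, called 0 SCR and 1 KO cell and so did not work; no doublets were removed. Tools were Python 3.11.15, numpy 2.4.6, scipy 1.17.1, pandas 2.3.3, scanpy 1.11.5, and edgeR 4.0.16 in R 4.3.3 for TMM factors only.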

Additional observations from a re-analysis of the deposited data

Results flagged for a closer look

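For 12 named genes the KO to SCR ratio lay on opposite sides of 1 in members and in other macrophages, with both counting intervals leaving out 1; with 1 library per genotype the difference was not tested. Lower in KO members were Retnla (0.450 in members and 1.35 in other macrophages), Pmel (0.158 and 1.34), P2rx7 (0.289 and 1.15), Cd209d (0.663 and 2.004), Saa3 (0.694 and 3.20), C4b (0.748 and 1.76) and Ccl24 (0.509 and 1.24). Higher in KO members were Slc40a1 (4.26 and 0.689), Arg1 (2.67 and 0.688), Ptgs2 (2.30 and 0.687), Cbr2 (1.86 and 0.919) and Folr2 (1.14 and 0.903). In the SCR library 1 member held 49.0% of the Retnla, 53.7% of the Pmel and 55.6% of the P2rx7 UMIs. This was a different cell each time. Among other macrophages, too, 1 KO cell held 1475 of the 3601 KO Retnla UMIs (41.0%). There 1 SCR cell held 690 of 2992 (23.1%). Retnla was found in 190 SCR and 97 KO cells of the other macrophages, and their ratio without the highest cells was not computed. For Saa3, Ccl24 and Cd209d 1 SCR member held 42.4%, 28.8% and 26.4%. Without that cell the ratios in members were 1.18 (0.878 to 1.585), 0.711 (0.435 to 1.14) and 0.891 (0.595 to 1.33), so Saa3 changed side. In the KO library 1 member held 41.0% of the Slc40a1, 44% of the Arg1 and 36.5% of the Ptgs2 UMIs. Cbr2 had 4.25% of its SCR and 6.80% of its KO UMIs in the highest cell, and Folr2 8.66% and 6.28%.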

How the results depend on the processing

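No paired analysis was possible because there was 1 library per genotype. Of 448 alternative values for 25 genes between genotypes, 325 moved less than their error, 106 moved more and 17 reversed. Of 375 for 25 genes against other macrophages, 251 moved less, 124 more and 0 reversed. The minimum of 50 UMIs cannot change a gene's ratio, and leaving out Scrublet doublets removed 0 members. The values of these 2 settings are therefore no check, yet they count among those that moved less. With 2 rule UMIs enough, members were 2.02% of cells in SCR and 1.66% in KO, and 26 genes were 2-fold lower than in other macrophages; with at least 5 they were 0.753% and 0.598%, with the rule on thinned cells 0.509% and 0.432%, and with Cd209f required (an alternative added after seeing the data) 0.728% and 0.478%, with 44 genes higher and 75 lower in KO. Without cells carrying 2 UMIs of another cell type, the KO share was 0.547 times the SCR share, 46 genes were higher and 70 lower in KO, and 20 were 2-fold lower than in other macrophages. The mean of the cells' CPM gave 177 higher and 196 lower in KO, and 88 higher and 95 lower than other macrophages; a minimum of 50 UMIs gave 303 and 304, and 108 and 64. TMM gave 57 higher in KO and 68 lower than other macrophages. Its factors shifted the log2 ratio of every gene by -0.06 between genotypes and, against other macrophages, by -0.13 in SCR and -0.17 in KO. A fold of 2 left 5 higher and 21 lower in KO. On the log2 scale of KO over SCR, members with Cd209f gave Vcam1 -1.06, Myc -0.095, Cd164 -0.40, Spp1 1.26, Rsad2 0.42 and Retnla 0.18; the thinned rule gave Mlana 1.46, Pmel 1.62, Dct 0.072, Spp1 1.13 and Rsad2 0.66; without cells of other-type UMIs Pmel was 1.63 and Lyve1 -0.064; with 2 rule UMIs Dct was 0.047; and without the 2 members of 100 or more melanoma UMIs (also added) Mlana was 1.87, Pmel 1.28 and Dct 0.43. The causes were not tested. Numbers of cells limit every value, since few cells can hold much of a gene's UMIs, and 1 library per genotype leaves the spread between tumours unmeasured.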

Other observations

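Cells that met every condition but the one on Mki67 and Top2a numbered 12 in SCR and 14 in KO. They were deep, with median depths of 23095 and 26932 UMIs, and mostly carried Fcna (10 and 13 cells), while Cd209f was found in 4 and 1 and Retnla in 2 and 0. Cells that failed on Cd3 alone numbered 18 in SCR and 11 in KO, with median depths of 9430.5 and 13322 UMIs. Cd209f was found in 10 and 7 of these, at 406 and 386 CPM, and Retnla in 6 and 6, at 1328 and 1581.5 CPM.

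Of the members, 5 SCR cells and 1 KO cell had a UMI of Ifnb1, the gene of interferon beta. The SCR cells held 81 UMIs, of which 71 were in 1 cell, and the KO cell held 1. In other macrophages Ifnb1 stood at 138 CPM in SCR and 57.7 CPM in KO.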
